A study of Rattus norvegicus with 48 samples.

Results

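The mitochondrial ribosomal protein genes are the nuclear genes whose protein products, made in the cytosol and imported, build the ribosome inside the mitochondrion. They were taken as the genes of the deposited table whose name reads Mrpl or Mrps, a number and at most 1 further letter, with a mean of at least 1 CPM (counts scaled to the library total) over the 48 libraries. The rule found 66 members among the 32883 genes of the table, of which 15580 were tested. Another 2 genes fitted the name and missed the level, Mrpl1 at a mean of 0.230 CPM and Mrpl36 at 0.434 CPM. Just inside lay Mrpl30 at 2.98 CPM, and the next member was Mrpl40 at 21.2 CPM. All 66 members were among the tested genes. A further 3 genes that the table writes in lower case (mrpl9, mrpl11 and mrpl24) fell outside the rule, and counting them changed no number of called genes.

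The libraries held RNA bound to tagged ribosomes (translating ribosome affinity purification), pulled down with antibodies to green fluorescent protein from nucleus accumbens punches of adult rats of both sexes. All animals carried a Cre transgene. D1:Cre rats gave RNA of D1 medium spiny neurons and A2a:Cre rats that of A2a (D2) medium spiny neurons, the projection neurons of the accumbens. Within each genotype, 8 libraries came from saline animals killed at withdrawal day 1 after 10 self-administration sessions. Another 8 came from cocaine animals at day 1 and 8 from cocaine animals at day 40. No saline group at day 40 is among the samples. The labels give neither sex per library, strain, exact age nor how the ribosome tag was introduced. The smallest library had 5.29 M counts, the largest 55.1 M, and 47 of 48 reached 24.5 M or more; the smallest was A2a cocaine day 1 replicate 7. Each sample description carries a first and a middle number that the labels do not explain. The first number ran from 1 to 62. The middle number was 85 in every D1 day 40 library and 88 in every A2a day 40 library, against 89, 91 or 92 at day 1. An effect of day 40 and one of the middle number therefore cannot be told apart. Markers followed the genotype labels. In saline animals 5 of 6 D1 neuron markers were higher and 6 of 7 A2a neuron markers lower in D1 libraries. Markers of other cells were present too. In D1 saline the summed CPM had a median of 1710 for D1 markers and 1320 for A2a markers. In A2a saline these medians were 306 and 10100. Oligodendrocyte and astrocyte markers had medians of 4440 and 2130 CPM in D1 saline and 4170 and 1960 CPM in A2a saline. Values given below for D1 or A2a neurons are those of such libraries. Ribosome-bound RNA in bulk tissue does not separate fewer cells of a type from less bound RNA per cell, and those cannot be told apart in any value below.

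Mitochondria keep a small genome that encodes core subunits of the respiratory chain, and the mitochondrial ribosome is the machine that translates it. Part of its proteins descend from those of bacterial ribosomes and part are found only in mitochondria. Assembly of this ribosome also needs factors that process and modify its ribosomal RNA. Neurons depend on oxidative phosphorylation for firing and synaptic transmission. With Mrps36 placed by its name, the standard assignment of the proteins gave 40 members of the large subunit and 26 of the small subunit. Mrps18a and Mrps30 were counted with the large subunit, where their proteins are found. Of the 66, 40 encode homologues of bacterial ribosomal proteins and 26 encode proteins specific to mitochondria. Mrps36 carries a ribosomal name and is counted here among the small-subunit and the mitochondria-specific members. Its product is known, however, as a subunit of the 2-oxoglutarate dehydrogenase complex. No count of called members changed without Mrps36.

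Promoters of genes for mitochondrial translation are known for sites of the factors NRF1, ETS-family GABP and YY1. Of the 13 called members described later, 10 have a RefSeq promoter entry, while Mrps35, Mrpl13 and Mrpl21 have none. Such a motif is in 7 of these 10. It is in 24 of the 51 members with an entry (47.1%) and in 21.8% of tested genes with an entry. The 4 windows below belong to those of the 7 that were called in a comparison of single groups, and they show how differently these promoters are built. Each spans the annotated start, 5′ to 3′ on the gene's strand, from RefSeq on GRCr8, a different build from the Rnor_6.0 of the counts. Capitals mark a match to the NRF1 motif (GCGC, any 2 bases, GCGC), to CCGGAAGT (ETS) or to AAGATGGC (YY1), read on either strand.
Mrpl3, chr8:114548720-114549019, plus strand: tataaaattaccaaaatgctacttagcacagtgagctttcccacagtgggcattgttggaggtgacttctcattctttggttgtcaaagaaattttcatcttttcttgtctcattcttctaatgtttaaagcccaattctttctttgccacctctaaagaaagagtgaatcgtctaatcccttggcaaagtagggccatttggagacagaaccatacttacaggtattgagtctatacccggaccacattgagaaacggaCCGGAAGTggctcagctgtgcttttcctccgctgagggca
Mrpl44, chr9:88554800-88555099, plus strand: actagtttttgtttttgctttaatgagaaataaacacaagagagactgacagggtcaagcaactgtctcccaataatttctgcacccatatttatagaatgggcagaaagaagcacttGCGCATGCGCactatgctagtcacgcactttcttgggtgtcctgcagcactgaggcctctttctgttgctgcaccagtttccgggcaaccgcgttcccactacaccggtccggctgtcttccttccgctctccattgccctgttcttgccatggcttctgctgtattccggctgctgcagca
Mrps27, chr2:32473954-32474253, plus strand: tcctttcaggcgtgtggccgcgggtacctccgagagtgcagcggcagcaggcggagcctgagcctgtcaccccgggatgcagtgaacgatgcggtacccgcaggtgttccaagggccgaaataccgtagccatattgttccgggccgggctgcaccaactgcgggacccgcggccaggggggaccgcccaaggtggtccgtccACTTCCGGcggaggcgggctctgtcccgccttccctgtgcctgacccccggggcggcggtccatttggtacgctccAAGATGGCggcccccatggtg
Mrps10, chr9:21122404-21122703, minus strand: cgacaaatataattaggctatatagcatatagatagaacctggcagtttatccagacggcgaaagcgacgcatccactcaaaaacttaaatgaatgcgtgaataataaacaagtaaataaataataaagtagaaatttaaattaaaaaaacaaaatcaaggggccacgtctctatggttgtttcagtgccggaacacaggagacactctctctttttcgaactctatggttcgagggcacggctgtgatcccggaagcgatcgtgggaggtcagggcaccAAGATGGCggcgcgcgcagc
In Mrpl3 the ETS match begins 11 bases into the transcript. Mrpl44 holds an NRF1 match that begins 132 bases before the start. Mrps27 holds an ETS match on the opposite strand, beginning 47 bases before the start, and a YY1 match from base 30 of the transcript. In Mrps10 a YY1 match begins at base 31, so in both genes this match lies inside the transcribed part. GC content of the windows was 42.7% in Mrpl3, 69.0% in Mrps27 and 43.7% in Mrps10.

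RefSeq entries of this kind matched 51 of the 66 members by symbol. At least 1 of the 3 motifs was found in 24 of the 51 (47.1%), against 21.8% of the 10856 tested genes with an entry and 12.4% of all 27457 promoters. The YY1 motif was in 12 members (23.5%), against 5.05% of tested genes. NRF1 was in 11 members (21.6%), against 12.1%, and ETS in 7 members (13.7%), against 7.21%. The Sp1 motif GGGCGG was in 24 members (47.1%), against 60.8% of tested genes. By subunit, NRF1 was in 9 of 32 large-subunit promoters and 2 of 19 small-subunit promoters. Matches of different motifs may share bases and were counted separately. These are descriptions of letters in a window, and no binding was measured.

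Across the 6 groups the members' RNA lay close together. The highest group mean of a member was less than 25% above its lowest in 64 of 66 members (97.0%). Among 5557 tested genes of the same CPM range (Mrpl30 aside) 80.1% stayed within that limit, as did 80.3% of 71 genes for cytosolic ribosomal proteins and 92.8% of 83 nuclear-encoded respiratory chain genes. The 2 exceptions were Mrps35, with a ratio of 1.26 and D1 cocaine day 40 highest, and Mrpl30, with a ratio of 1.81. Replicate spread was also small: the coefficient of variation of CPM within groups had a median of 8.50% over members, against 9.08% over genes of that CPM range. CPM is not scaled to transcript length, so no order of abundance between members is given.

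**Figure D1:**
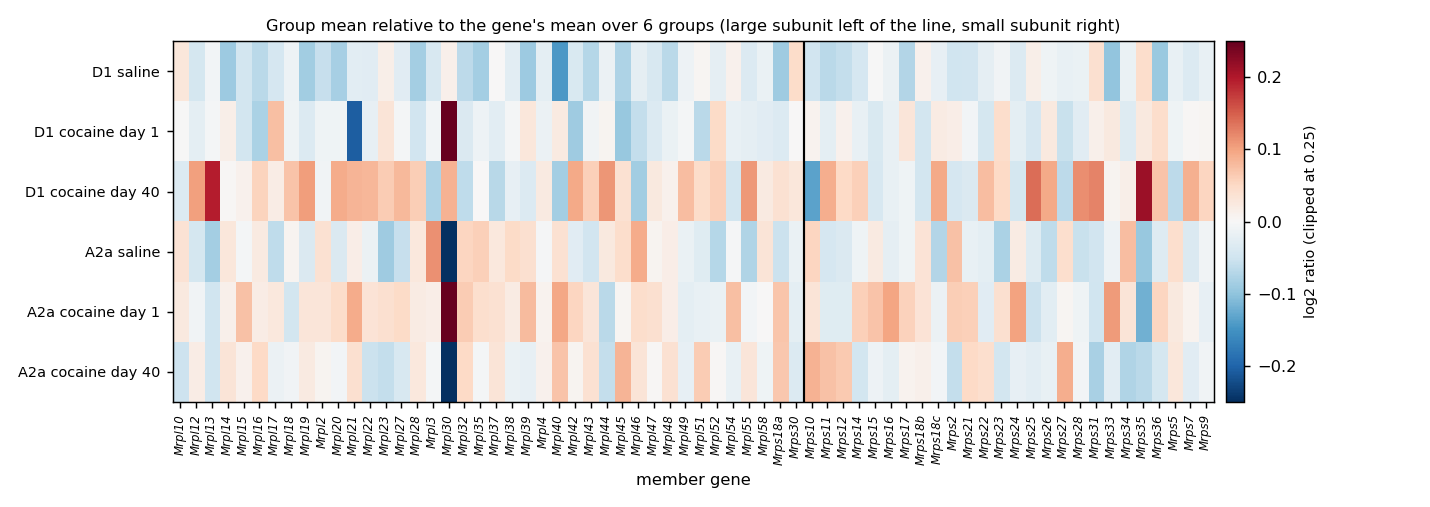
Heat map of the mean of 8 libraries per group for the 66 members, as a log2 ratio to each gene's mean over the 6 groups, with large-subunit members left of the line and small-subunit members right. Colours stay pale for nearly all genes; Mrpl30 (clipped at 0.25), Mrps35, Mrpl13 and Mrpl21 carry the strongest.

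Mrpl30, which encodes a large-subunit protein with a bacterial homologue, was the exception in level and in spread. Its lowest, median and highest values were 0.674, 2.96 and 4.25 CPM in D1 saline, and 2.87, 3.75 and 5.15 CPM in D1 cocaine day 1. In A2a cocaine day 40 they were 0.557, 2.14 and 2.90 CPM. The groups overlapped, its within-group coefficient of variation was 33.6%, and the fall from A2a cocaine day 1 to day 40 of -0.74 ± 0.29 (SE) on the log2 scale had an adjusted p of 0.300. RefSeq lists 9 named pseudogene copies of Mrpl30, so its counts are uncertain. In all, 22 members have such a named copy and 16 overlap another annotated gene. Those with a copy include Mrps25, Mrps10, Mrpl40, Mrpl45, Mrpl46 and Mrpl32, called in comparisons below, so the same limit holds for them. No source used here gives the strand setting of the counting, so reads of overlapping genes cannot be told apart.

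The first question was what cocaine self-administration did at withdrawal day 1. No member was called (adjusted p under 0.05 in edgeR's quasi-likelihood test, adjusted over all 15580 genes) in D1 neurons, where 0% of all tested genes were called. None was called in A2a neurons either, where the background was 0.0706%. At an unadjusted p under 0.05 there were 3 members in D1, where 2.33% of tested genes passed, and 4 in A2a, where 5.98% passed. The DESeq2 Wald test and limma-voom also called 0 members in both, as in every other comparison below with 0 calls in edgeR except D1 day 40 against saline, where DESeq2 called 2. The median log2 difference of the members was 0.02 in D1 and 0.03 in A2a. For 64 of 66 members in D1 and 65 of 66 in A2a, the 95% interval of the difference lay within 25% (as a ratio) in either direction.

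Mrpl17, a large-subunit protein gene with a bacterial homologue, had the smallest p in D1. Its lowest, median and highest values were 137, 147 and 150 CPM in D1 saline and 152, 157 and 162 CPM in D1 cocaine day 1. All 8 cocaine libraries lay above all 8 saline libraries, a separation seen in 0.0321% of tested genes. The log2 difference was 0.12 ± 0.044 (SE), and its adjusted p in edgeR was 1. In A2a neurons Mrpl17 stood at 126, 144 and 154 CPM in saline and at 126, 151 and 168 CPM in cocaine day 1, and the groups overlapped. The next genes in D1 also missed the test: Mrpl21 differed by -0.18 ± 0.072, Mrpl40 by 0.17 ± 0.077 and Mrps36 by 0.14 ± 0.069, each with an adjusted p of 1 in edgeR. In A2a the smallest p belonged to Mrps18a, 1 of the 3 homologues of the bacterial S18 protein, at 0.13 ± 0.054 with an adjusted p of 0.771. The interaction of neuron type and cocaine at day 1 called 0 members, against 0.00642% of tested genes, with 2 at an unadjusted p under 0.05, against 3.35%.

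The second question was how day 40 differed from day 1 after cocaine. In D1 neurons 1 of 66 members rose and 0 fell, against 1.85% of tested genes called, 0.7% higher and 1.16% lower. At an unadjusted p under 0.05 there were 11 of 66 members, all higher, against 15.3% of tested genes in either direction. The share of tested genes that were higher at that p is not given here. The called member was Mrpl21, which encodes a large-subunit protein with a bacterial homologue. Its lowest, median and highest values were 31.8, 41.4 and 51.02 CPM at day 1 and 44.2, 50.6 and 54.9 CPM at day 40. The groups overlapped, and 4 of 8 day 40 libraries lay above all day 1 libraries. The rise was 0.29 ± 0.072 on the log2 scale (SE) with an adjusted p of 0.0210 in edgeR. Saline D1 libraries had a median between these, with values of 42.0, 46.0 and 53.4 CPM, and the difference of day 40 from saline was 0.11 ± 0.072 with an adjusted p of 0.461. When only the groups compared entered the fit, the call of Mrpl21 was lost (adjusted p = 0.0772). Mrps35, a mitochondria-specific small-subunit protein gene, and Mrpl13, a large-subunit gene with a bacterial homologue, came next at 0.19 ± 0.054 (adjusted p = 0.0535) and 0.20 ± 0.062 (adjusted p = 0.0774) and did not pass.

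In A2a neurons 0 of 66 members were called between day 40 and day 1, against 0.263% of tested genes, and 3 passed an unadjusted p of 0.05, against 10.5%. The smallest p was that of Mrps2, a small-subunit protein gene with a bacterial homologue. It stood at 70.3, 75.5 and 78.5 CPM at day 1 and at 60.3, 68.4 and 77.9 CPM at day 40 (lowest, median, highest), and the groups overlapped. The difference of -0.12 ± 0.042 had an adjusted p of 0.192. Mrpl21 in A2a neurons went from 44.1, 49.3 and 61.7 CPM to 40.9, 48.9 and 55.1 CPM, a difference of -0.06 ± 0.072.

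Taking the members together, the median log2 difference of day 40 from day 1 was 0.04 in D1 neurons, with 45 of 66 above 0 against 48.5% of tested genes, and -0.02 in A2a neurons, with 24 of 66 above 0 against 50.1%. Over all tested genes the medians were -0.01 and 0.00. The interaction of neuron type and withdrawal day, which tests whether the change differed between neuron types, called 0 members, against 0.0642% of tested genes, and 5 passed an unadjusted p of 0.05, against 10.5%. Its members' median was 0.07 with 53 of 66 above 0, against 50.1% of tested genes above 0. Mrpl21 had the smallest p, with an interaction of 0.35 ± 0.10 and an adjusted p of 0.134 in edgeR. For comparison, the interaction's median was 0.12 over respiratory chain genes and -0.02 over cytosolic ribosomal protein genes. Members share libraries and vary together, as described further on, so 53 of 66 is not a count of independent genes.

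Against saline, D1 cocaine day 40 also called 0 of 66 members, against 2.61% of tested genes. At an unadjusted p under 0.05, 14 members (21.2%) passed, all of them higher, against 16.2% of tested genes in either direction. The median difference was 0.08 with 53 of 66 members above 0, against 48.2% of tested genes. The median was 0.14 over respiratory chain genes and 0.06 over cytosolic ribosomal protein genes. Large and small subunit medians were both 0.08. The smallest p belonged to Mrpl13, at 78.9, 84.99 and 90.1 CPM in saline and 81.0, 102 and 104 CPM at day 40. Here 6 of 8 day 40 libraries lay above all saline libraries and the difference was 0.20 ± 0.062 with an adjusted p of 0.0630. Among the other comparisons at hand, D1 day 40 against saline shares its day 40 libraries with the comparison against day 1, so these are not independent. The count of called members moved with the setting here: 4 were called when only the compared groups entered the fit, 2 in DESeq2, and up to 2 when a single library was left out (without D1 saline replicate 3).

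In A2a neurons day 40 against saline called 0 of 66 members, where 0% of tested genes were called, and 3 members passed an unadjusted p of 0.05 against 5.38% of tested genes. The median difference was 0.01. Mrps2 again had the smallest p, at -0.13 ± 0.041 with an adjusted p of 0.572, and Mrpl3 came next at -0.12 ± 0.042 with an adjusted p of 0.698.

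Averaged over both neuron types, 0 of 66 members were called in edgeR for cocaine day 1 against saline, day 40 against day 1 or day 40 against saline. Over all tested genes 0%, 1.78% and 0.488% were called. At an unadjusted p under 0.05 there were 8, 10 and 13 members, against 4.83%, 16.4% and 13.2% of tested genes. These contrasts reuse the libraries of the single-type comparisons. The smallest adjusted p was 0.626 for Mrpl17, 0.0923 for Mrps2 and Mrps35, and 0.120 for Mrps18a.

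Interferon response genes and microglia markers were lower in the D1 day 40 group. Which cells the interferon response RNA came from was not measured. The summed CPM of 8 interferon response genes ran from 28.1 to 71.7 in D1 cocaine day 40, from 31.7 to 262 in D1 cocaine day 1 and from 72.0 to 242 in D1 saline. The summed CPM of 8 microglia markers ran from 109 to 204 in D1 cocaine day 40, from 109 to 431 in D1 cocaine day 1 and from 163 to 478 in D1 saline. Every listed microglia marker was tested. Against day 1, 5 of 8 interferon genes and 2 of 8 microglia markers were called lower in D1 day 40. Against saline, 7 of 8 interferon genes and 3 of 8 microglia markers were called lower. Their part in the members' values was not tested.

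**Figure D2:**
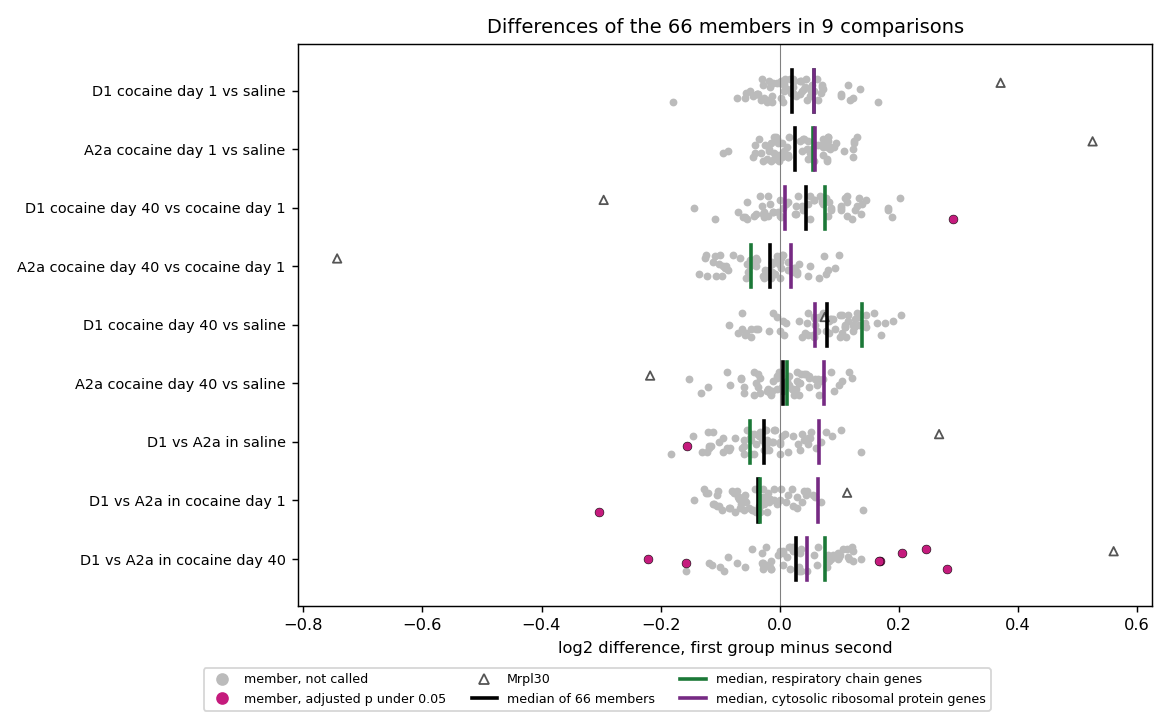
Log2 differences of the 66 members (points) in 9 comparisons, each row named as first group against second; filled magenta points have an adjusted p under 0.05, triangles are Mrpl30, and vertical lines give the medians of members, respiratory chain genes and cytosolic ribosomal protein genes. Apart from Mrpl30 the points lie mostly within 0.2 of 0, and the largest number of called members, 7, is in D1 against A2a at cocaine day 40.

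The third question was how D1 and A2a neurons differed. All D1 libraries came from D1:Cre rats and all A2a libraries from A2a:Cre rats, so neuron type and transgenic line cannot be told apart. RNA of other neurons differed between these libraries in every state. The summed CPM of 5 interneuron markers (of 7 listed) ran from 738 to 1100 in D1 saline and from 149 to 306 in A2a saline, with medians of 860 and 198. At cocaine day 1 the medians were 1180 and 202, and at day 40 they were 1010 and 232. The groups did not overlap in any state, and 3 of 5 markers were called higher and 1 lower in D1 each time. Of 6 markers shared by both types of medium spiny neuron, 4 were called lower in D1 in saline, 2 at cocaine day 1 and 4 at day 40. The part of these differences in the members' values was not tested.

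Among saline animals, 1 of 66 members was called, lower in D1, against 8.13% of tested genes called, 4.01% lower and 4.12% higher. This was Mrpl3, a large-subunit protein gene with a bacterial homologue whose product lies near the peptidyl transferase centre; its promoter is the first of those printed above. It stood at 75.2, 83.2 and 88.6 CPM in D1 and at 86.5, 91.97 and 96.3 CPM in A2a (lowest, median, highest). The groups overlapped slightly, with 6 of 8 D1 libraries below all A2a libraries. The difference was -0.16 ± 0.042 with an adjusted p of 0.0114. In cocaine animals the A2a values of Mrpl3 were 74.5, 86.1 and 92.9 CPM at day 1 and 80.8, 83.8 and 90.2 CPM at day 40, next to D1 medians of 84.1 and 82.9 CPM, and the neuron types overlapped.

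At cocaine day 1 again 1 member was called, lower in D1, against 11.1% of tested genes called, 5.56% lower and 5.53% higher. This was Mrpl21, whose D1 values were 31.8, 41.4 and 51.02 CPM against 44.1, 49.3 and 61.7 CPM in A2a. The difference was -0.30 ± 0.072 with an adjusted p of 0.00294, and 6 of 8 D1 libraries lay below all A2a libraries. Mrpl21 was not called in saline animals (-0.04 ± 0.072) or at day 40 (0.05 ± 0.072). The comparisons of Mrpl21 between neuron types and between days use the same 8 D1 cocaine day 1 libraries, which held the lowest values.

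At cocaine day 40, 7 of 66 members were called, 5 higher and 2 lower in D1. Over all tested genes 20.4% were called, 10.1% higher and 10.3% lower, so the members' shares lie below the background. All 8 D1 libraries here carry the middle number 85 and all 8 A2a libraries 88, so neuron type at day 40 and that number cannot be told apart. Mrps35 separated the groups. Its lowest, median and highest values were 73.23, 78.4 and 91.02 CPM in D1 and 54.6, 66.4 and 73.19 CPM in A2a. All 8 D1 libraries lay above all 8 A2a libraries, narrowly at the nearest pair, a separation seen in 3.34% of tested genes. The difference was 0.28 ± 0.054 with an adjusted p of 0.000125 in edgeR, and the call held in each of the 8 alternative fits and with each library left out. In saline and at cocaine day 1 Mrps35 was also higher in D1 by point estimate (0.14 ± 0.054 in both), with adjusted p of 0.116 and 0.0907.

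Of the other members higher in D1 at day 40, Mrpl13 stood at 81.0, 102 and 104 CPM against 68.5, 83.2 and 96.3 CPM in A2a. That is a difference of 0.25 ± 0.062 with an adjusted p of 0.00288, and the groups overlapped. Mrps31, a mitochondria-specific small-subunit gene, was at 30.9, 36.0 and 39.1 CPM against 26.8, 31.1 and 34.9 CPM. Its difference of 0.21 ± 0.061 had an adjusted p of 0.0116, and the RefSeq annotation places a long noncoding RNA gene over it. Mrpl44, a mitochondria-specific large-subunit protein with an RNase III-like fold, was at 51.3, 58.6 and 66.3 CPM against 46.3, 51.1 and 57.6 CPM. Its difference was 0.17 ± 0.054 with an adjusted p of 0.0192; its promoter, with an NRF1 match, is printed above. Mrps25, a mitochondria-specific small-subunit gene, was at 101, 119 and 134 CPM against 86.7, 106 and 124 CPM. Its difference was 0.17 ± 0.062 with an adjusted p of 0.0477, and the call was lost in 9 of 16 fits with 1 library left out.

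The 2 members lower in D1 at day 40 both encode small-subunit proteins. Mrps10, a homologue of bacterial S10, was at 19.4, 20.9 and 23.7 CPM in D1 and 23.0, 24.1 and 28.2 CPM in A2a. The difference was -0.22 ± 0.073 with an adjusted p of 0.0257, and 7 of 8 D1 libraries lay below all A2a libraries; the call was lost in 4 of 16 fits with 1 library left out. Mrps27, a mitochondria-specific protein of the pentatricopeptide repeat family, was at 49.0, 58.7 and 63.8 CPM against 57.7, 63.5 and 75.0 CPM. The difference was -0.16 ± 0.056 with an adjusted p of 0.0376; the call was lost in 8 of 16 fits with 1 library left out and in 2 of 8 other fits. In 3 cases, leaving out A2a cocaine day 40 replicate 3, D1 cocaine day 40 replicate 2 or D1 cocaine day 40 replicate 5, 4 members were called in place of 7, all higher. At this time 6 of 8 microglia markers and 6 of 8 interferon response genes were called lower in D1, and their part in these values was not tested.

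**Figure D3:**
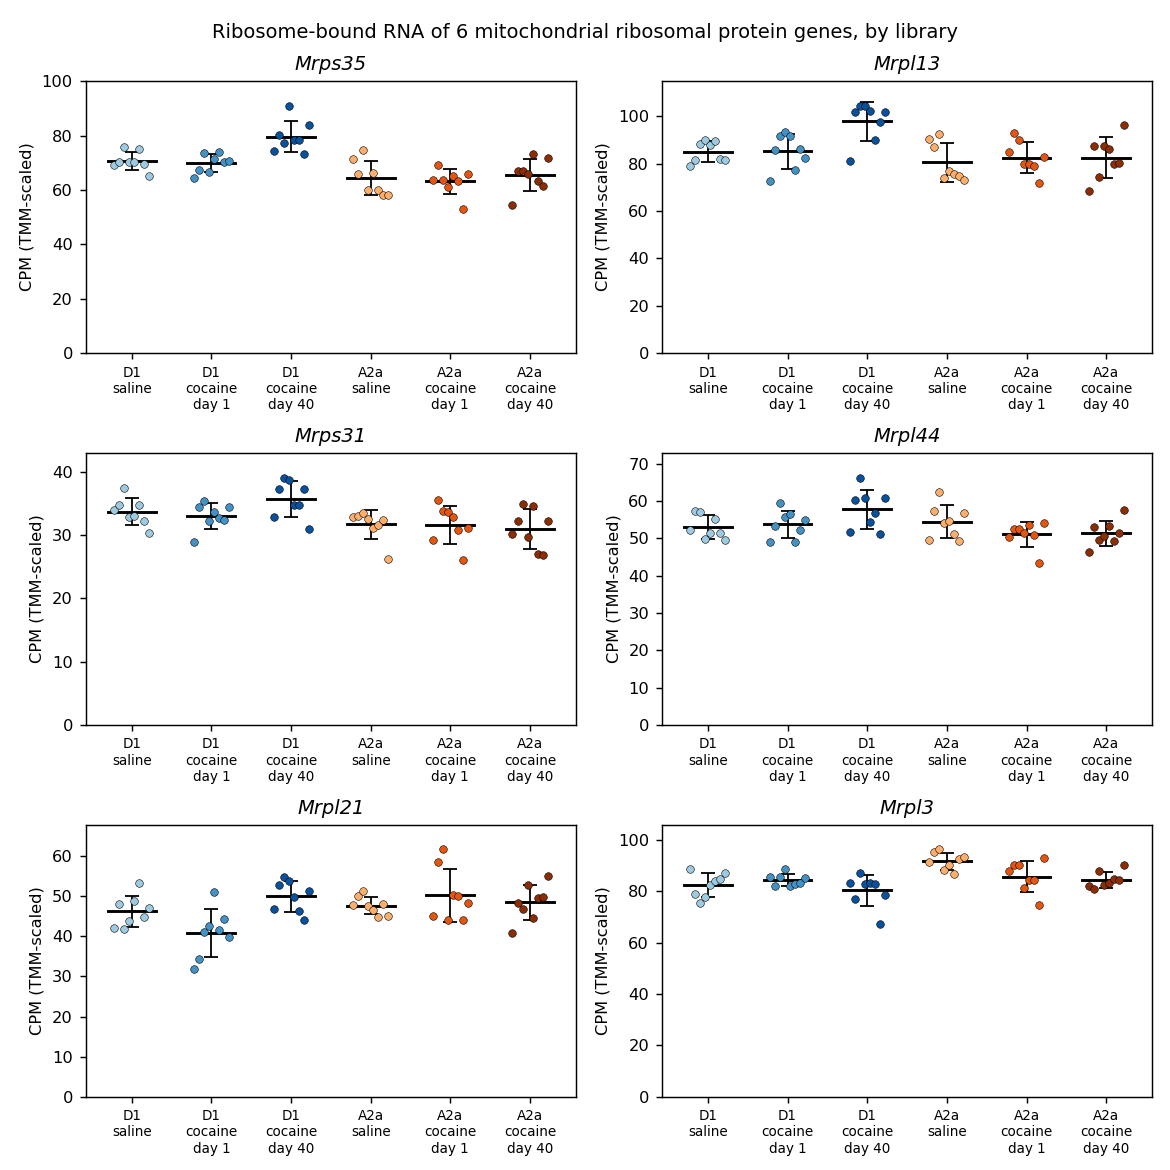
CPM per library (points, 8 per group) with group mean and SD for 6 called members. Mrps35 in D1 cocaine day 40 lies above every A2a cocaine day 40 library, and Mrpl21 is lowest in D1 cocaine day 1.

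Averaged over the 3 states, 10 of 66 members (3 higher and 7 lower in D1) were called, against 31.6% of tested genes, 15.2% higher and 16.5% lower. This contrast uses all 48 libraries and contains the comparisons above. In it 3 of 5 interneuron markers and 3 of 8 astrocyte markers were called higher in D1. Called lower were 1 interneuron marker, 3 of 8 microglia markers, 5 of 8 interferon response genes and 5 of 6 shared medium spiny neuron markers. Their part in the members' values was not tested. Higher in D1 were Mrps35 at 0.19 ± 0.031 (adjusted p = 4.93e-06), Mrpl13 at 0.12 ± 0.036 (0.00672) and Mrps31 at 0.12 ± 0.035 (0.00857). Lower were Mrpl3 at -0.08 ± 0.024 (0.00540), Mrpl40 at -0.14 ± 0.045 (0.0141), Mrps27 at -0.09 ± 0.032 (0.0207) and Mrps10 at -0.12 ± 0.042 (0.0306). Mrpl46, Mrpl45 and Mrpl32 were also called lower, at -0.11 ± 0.044, -0.09 ± 0.035 and -0.11 ± 0.044, with adjusted p of 0.0412, 0.0423 and 0.0427. Mrpl45 is known to anchor the ribosome to the inner membrane, and the Mrpl32 product is known to be matured by the m-AAA protease before it joins the ribosome. Calls of these last 3 were lost in 19 to 24 of 48 fits with 1 library left out. Of 71 cytosolic ribosomal protein genes, 14 were called higher and 1 lower in this contrast. Of 83 respiratory chain genes, 4 were called higher and 8 lower. Both shares lie below the 31.6% of tested genes called.

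Members with well-studied places in the ribosome showed no called difference in any of the 15 comparisons, apart from those named above. Mrpl12, whose product forms the stalk and is also known to bind the mitochondrial RNA polymerase, had group medians from 156 CPM (D1 saline) to 179 CPM (D1 cocaine day 40) and a smallest adjusted p of 0.248. Mrpl10, the other stalk gene among the members, had group medians from 71.7 to 77.3 CPM. Mrps12, the homologue of the bacterial decoding-centre protein S12, ranged in group medians from 59.1 to 64.7 CPM, with a smallest adjusted p of 0.348. Mrpl58, a peptidyl-tRNA hydrolase built into the large subunit, had group medians from 68.3 to 71.4 CPM and the smallest adjusted p was 0.759. The S18 homologues Mrps18a, Mrps18b and Mrps18c reached smallest adjusted p of 0.120, 0.263 and 0.365.

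Further genes of mitochondrial translation and its regulation were taken from lists of 4 further ribosomal proteins, 23 assembly and RNA modification genes, 15 translation factors, 18 aminoacyl-tRNA synthesis genes, 9 transcription genes and 12 nuclear regulators, 81 genes in all. Of these, 2 were called in D1 day 40 against day 1 (2.47%, against 1.85% of all tested genes) and 4 in D1 day 40 against saline (4.94%, against 2.61%). Between neuron types 4 were called in saline (4.94%, against 8.13%), 6 at cocaine day 1 (7.41%, against 11.1%) and 13 at day 40, 5 higher and 8 lower in D1, against 20.4% of all tested genes. In the contrast averaged over states 23 were called, 7 higher and 16 lower (28.4%, against 31.6%). None was called in A2a neurons between states in edgeR. Tufm encodes the mitochondrial elongation factor EF-Tu. It was at 105.5, 112.6 and 119.6 CPM in D1 cocaine day 1 and at 112, 128 and 143 CPM in D1 cocaine day 40, a rise of 0.19 ± 0.046 with an adjusted p of 0.0221. Ngrn, needed for maturation of the large-subunit ribosomal RNA, went from 75.5, 83.9 and 92.9 CPM to 85.1, 100.4 and 108 CPM, a rise of 0.22 ± 0.056 with an adjusted p of 0.0227. The groups overlapped for both genes. The Tufm call was lost in 3 of 16 fits with 1 library left out and in 1 of 8 alternative fits. That of Ngrn was lost in 2 of 16 fits with 1 library left out. Tufm and Ngrn were the only genes of these 6 lists called in that comparison. Against saline the same 2 genes were called higher in D1 day 40 (0.20 ± 0.046 and 0.23 ± 0.056). The Ngrn call against saline was lost in 1 of 8 alternative fits, namely that with only the compared groups. Rars2, the mitochondrial arginyl-tRNA synthetase, was also called higher against saline, at 0.44 ± 0.13 (adjusted p = 0.0483, lost in 4 of 8 alternative fits and in 13 of 16 fits with 1 library left out). Yy1, the factor whose motif is marked in 2 promoters above, was called lower in that comparison at -0.39 ± 0.096 (adjusted p = 0.0174).

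Between neuron types Lrpprc, which stabilizes mitochondrial messenger RNAs together with Slirp, was lower in D1 in every state: -0.34 ± 0.063 in saline, -0.22 ± 0.063 at cocaine day 1 and -0.23 ± 0.063 at day 40, with adjusted p of 0.000124, 0.0148 and 0.00598. The Lrpprc call at cocaine day 1 was lost in 1 of 16 fits with 1 library left out and in 1 of 9 alternative fits. Slirp itself was higher in D1 at day 40 by 0.30 ± 0.072 (adjusted p = 0.00159). Mtrf1, a mitochondrial release factor gene, was higher in D1 in saline and at day 40 (0.24 ± 0.059 and 0.16 ± 0.059, adjusted p of 0.00547 and 0.0408). Its call at day 40 was lost in 7 of 16 fits with 1 library left out and in 2 of 8 alternative fits. Vars2, the mitochondrial valyl-tRNA synthetase gene, was higher in D1 in saline and at cocaine day 1 (0.35 ± 0.089 and 0.31 ± 0.090, adjusted p of 0.00750 and 0.0164). Each of these Vars2 calls was lost in 1 of 9 alternative fits. Esrra, a nuclear receptor regulator of mitochondrial genes, was lower in D1 in saline, at -0.32 ± 0.088 (adjusted p = 0.0143). Dap3, a small-subunit ribosomal protein without an Mrp name, was lower in D1 at cocaine day 1, at -0.16 ± 0.054 (adjusted p = 0.0432). The Dap3 call was lost in 9 of 16 fits with 1 library left out and in 4 of 9 alternative fits. At day 40 Fastkd2, an RNA-binding factor of ribosome assembly, was lower in D1, at -0.34 ± 0.091 (adjusted p = 0.00525). In that same comparison Polg, the catalytic subunit of the mitochondrial DNA polymerase, was lower, at -0.40 ± 0.075 (adjusted p = 0.000105).

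Members varied together from library to library within groups. After each group's mean was subtracted, the Pearson correlation over 48 libraries was computed for every pair of members. Its median was 0.50 over 2145 pairs, and 98.6% of pairs were above 0. Genes of the same CPM range had a median of 0.0179. With A2a cocaine day 1 replicate 7 left out the members' median was 0.453. The value was 0.683 among cytosolic ribosomal protein genes and 0.503 among respiratory chain genes, and 0.465 and 0.484 between members and each of these lists. Mrpl20, a large-subunit protein gene with a bacterial homologue, had the highest mean correlation with the others at 0.636, and Mrpl38, a mitochondria-specific large-subunit gene, the lowest at 0.0962. Points of each correlation share library, depth and composition, and are given as a description without a p. Only group means were subtracted, and the part of the description's first number in these correlations was not tested.

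**Figure D4:**
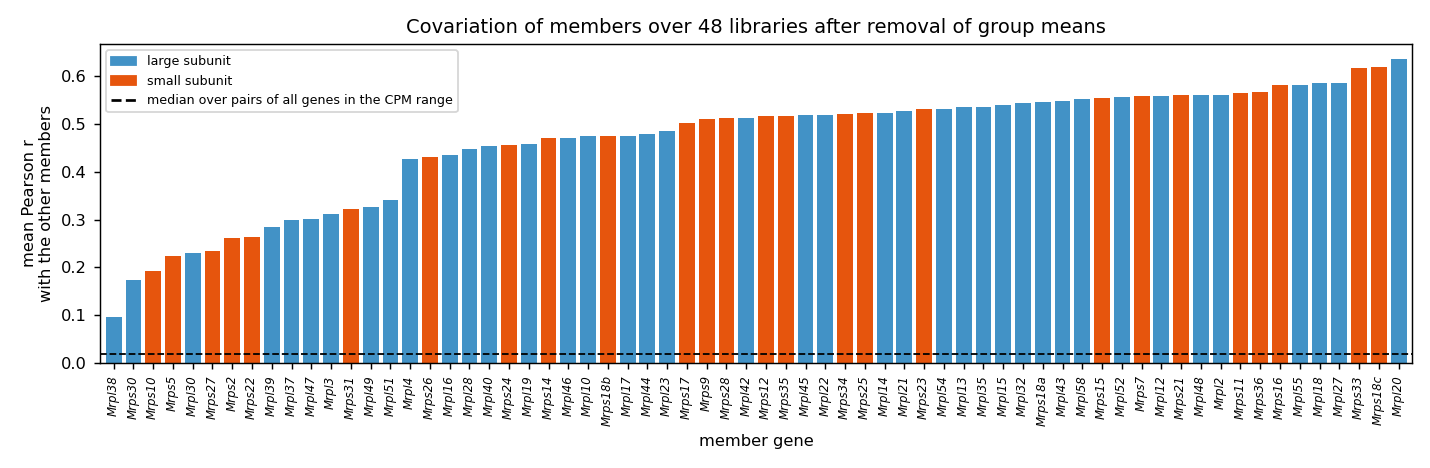
Mean Pearson correlation of each member with the other 65 over 48 libraries after subtraction of group means; bars are members, blue for the large and orange for the small subunit, and the dashed line is the median of 0.0179 over pairs of genes of the same CPM range. All bars lie above the dashed line, from 0.0962 for Mrpl38 to 0.636 for Mrpl20.

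A score, the mean log2 CPM of the 66 members minus its mean over the 48 libraries, places each library on 1 scale. Group means ± SD (n = 8) were -0.03 ± 0.038 in D1 saline, -0.01 ± 0.085 in D1 cocaine day 1 and 0.04 ± 0.055 in D1 cocaine day 40. They were -0.01 ± 0.097 in A2a saline, 0.02 ± 0.13 in A2a cocaine day 1 and -0.01 ± 0.12 in A2a cocaine day 40. All 6 groups overlapped. The 2 lowest libraries were A2a cocaine day 40 replicate 1 (-0.21), which had the largest total at 55.1 M, and A2a cocaine day 1 replicate 7 (-0.20), which had the smallest at 5.29 M. The highest were A2a cocaine day 40 replicate 8 (0.19), A2a cocaine day 1 replicate 2 (0.18) and A2a saline replicate 3 (0.17). Scores ran with the first number of the description. In all 6 groups, every library numbered 12 or lower scored below the mean of the 48 libraries, from -0.21 to -0.04. Most of those numbered 13 to 34 scored above it. Of those numbered 39 to 48, all but D1 cocaine day 1 replicate 7 (0.03) scored below it. The part of this number in the scores was not tested. At day 1, within libraries sharing the middle number of the description, the cocaine minus saline difference of the mean score in D1 was 0.02, 0.03 and 0.04 for the numbers 89, 91 and 92. In A2a it was 0.10, -0.09 and 0.00, each from at most 5 libraries a side. The A2a value for 91 rests on 1 cocaine and 3 saline libraries. That for 92 rests on 2 cocaine libraries, of which 1 is the smallest library, and on 1 saline library.

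**Figure D5:**
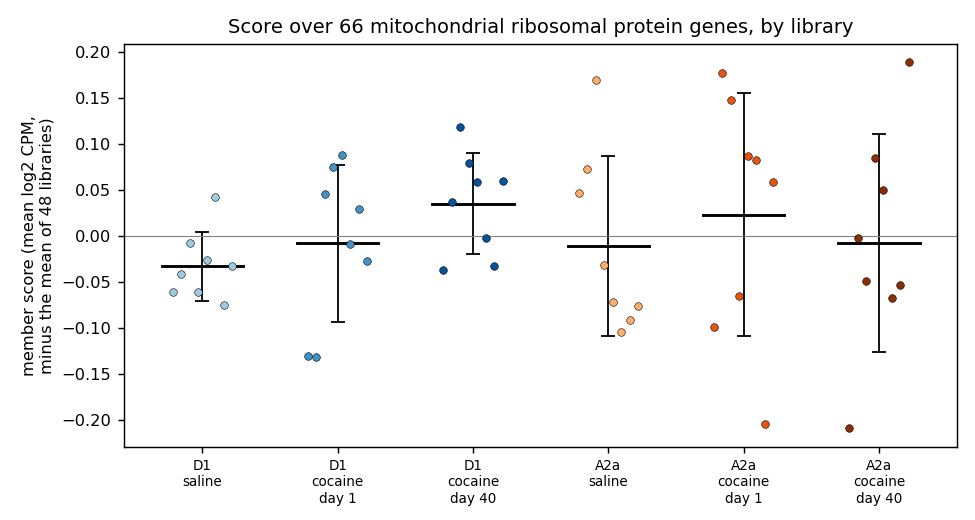
Member score per library (points, 8 per group; log2 scale, 0 is the mean of 48 libraries) with group mean and SD. Scores range from -0.21 to 0.19, the A2a groups spread more widely than D1 saline, and all groups overlap.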

How the data were processed

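The deposited table held whole-number read counts per gene, not normalized, and the notes of the submitters name, for processing, the build Rnor_6.0 and the tools STAR, SAMtools, Trimmomatic and bcl2fastq. No source used here names the counting program or strand setting. Of 32883 rows, 12500 have no name. Groups came from the sample titles; replicates were taken as separate animals, since the labels speak of 48 brains. All 48 libraries were fitted in edgeR 4.0.16 (R 4.3.3) in 1 quasi-likelihood model with robust dispersions, TMM scaling and a minimum count of 10, tested over 15 contrasts with Benjamini-Hochberg adjustment over 15580 genes at 0.05. Differences are first group minus second, and their SE is the size of the difference over the square root of F. CPM uses TMM-scaled totals, except that the membership rule used plain totals. Log2 CPM used a prior count of 2. Motifs were searched in RefSeq windows. The edgeR fit was tried on simulated data for 1 contrast, D1 cocaine day 40 against day 1, with a fixed dispersion and independent genes. The other steps were not tried on simulated data. Genes named were drawn by a rule from the called members, or the 4 of smallest p where fewer than 4 passed, and from a fixed panel. The rule also took extremes of level and spread, and called genes of the lists, at most 3 a list and comparison. Not every gene that the rule took is described in the text. Members and lists were chosen with earlier results of these data known. Alternatives used DESeq2 1.42.0 and limma 3.58.1, other scalings, filters and sample sets. Same-numbered replicates do not mark shared animals.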

Additional observations from a re-analysis of the deposited data

Results flagged for a closer look

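Among 252 groups of 8 libraries, tested for the 41 named members and the member score, 17 held a library set apart from the rest by the gap between its value and the next by Dixon's critical value; chance gives about 1 in 20. In A2a cocaine day 1 this was replicate 7, the smallest library, and low for Mrpl44 (43.5 CPM), Mrps22 (28.4 CPM) and Mrps27 (48.6 CPM). In A2a cocaine day 40, replicate 1 was low for Mrpl32 (29.2 CPM) and Mrps14 (46.7 CPM), replicate 7 was low for Mrpl30 (0.557 CPM) and replicate 4 was high for Mrps27 (75.0 CPM). In A2a saline, replicate 3 was high for Mrpl35 (94.8 CPM) and Mrps23 (68.9 CPM), and replicate 8 was low for Mrps31 (26.2 CPM). In D1 saline, the high values were Mrpl10 (85.4 CPM, replicate 5), Mrpl42 (88.7 CPM, replicate 4) and Mrps18c (81.3 CPM, replicate 6). In D1 cocaine day 1, replicate 2 was low for Mrpl15 (102 CPM) and Mrpl51 (41.3 CPM), while Mrps22 (40.8 CPM, replicate 5) and Mrps36 (91.5 CPM, replicate 4) were high.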

How the results depend on the processing

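Median differences of the members were small beside the pooled SD of the score (0.0937), so that SD does not show them stable. With 1 library left out, 11 of 15 medians kept their sign. The others spanned 0: A2a day 40 against day 1 from -0.0514 to 0.00289, A2a day 40 against saline from -0.0217 to 0.0442, the averaged day 40 against day 1 from -0.0103 to 0.0202 and the interaction with cocaine from -0.0354 to 0.0161. Counts of called members moved as follows. D1 day 40 against day 1 (1 called) gave 2 with DESeq2 size factors, 3 with the DESeq2 Wald test, 0 with only the compared groups and 2 without the smallest library; leaving out libraries gave 1 to 3 (3 without D1 cocaine day 40 replicate 1, 2 without its replicate 7 or D1 cocaine day 1 replicate 3). D1 day 40 against saline (0 called) gave 2 with the DESeq2 Wald test, 4 with only the compared groups and 2 without the smallest library; leaving out libraries gave 0 to 2 (2 without D1 saline replicate 3, 1 without D1 cocaine day 40 replicate 1 or 6). D1 against A2a averaged (10 called) gave 6 with no filter on low counts and 6 to 12 with a library left out, the 6 without A2a cocaine day 1 replicate 2. D1 against A2a gave 2 in place of 1 at cocaine day 1 without the smallest library (range 1 to 2), 2 in place of 1 in saline with the DESeq2 Wald test (range 1 to 2, with 2 without A2a saline replicate 3, 4, 6 or 7 or D1 saline replicate 2 or 6), and 4 to 8 in place of 7 at day 40. The averaged contrasts of day 40 against day 1 and against saline gave 0 to 1 (1 without A2a cocaine day 40 replicate 1, and for day 1 also without its replicate 8). The 7 other contrasts gave 0 with every library left out. The cause was not tested.

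With the replicate number as a block, D1 day 40 against day 1 gave 2 called members and D1 day 40 against saline gave 1; no other count moved by over 1.5 times. Same-numbered libraries correlated between -0.369 and 0.616, with 86 of 120 over 0.1 and a median of 0.197 over the medians of 15 group pairs. All 8 pairs were over 0.1 in A2a day 1 with A2a day 40 (0.168 to 0.429) and in D1 day 40 with A2a day 1, but not in the 13 other group pairs. Between libraries of different number the medians of the group pairs lay from -0.0792 to 0.00369. The labels give the replicate number no meaning, but in part it runs with the first number of the description. That number rises from 3 in replicate 1 to 45 in replicate 8 of D1 cocaine day 1. Other groups depart from the order, as A2a cocaine day 1, where replicate 4 has 40 and replicate 5 has 16. No fit used the first number, and its part in these correlations was not tested. In A2a day 40 against day 1 the block also gave 0 called members. The fit with only the compared groups does not apply to the contrast that uses all 6. Counting the 3 lower-case names, or leaving out Mrps36 or Mrpl30, all chosen after seeing the data, moved no count. Depth limits the smallest library, in which a gene at Mrpl30's level rests on few counts.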
